A study of Mus musculus with 4 samples.

Results

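The 9 genes described here make, bind, break down or respond to retinoic acid: Rdh10, Aldh1a1, Aldh1a2, Aldh1a3, Crabp1, Crabp2, Cyp26a1, Cyp26b1 and Rarb. They were taken by name from a count table of 34682 genes, in which all 9 were found, and 8 of the 9 had enough reads to be tested. RNA was sequenced from developing mouse ovaries at E13.5, in 2 libraries of mutants that overexpress Sall1 and 2 of wild-type embryos. The mutants carry a transgene on a BAC, a large genomic insert, that drives Sall1 from Wt1 control sequences, and Wt1 is active in supporting and other somatic gonad cells. The transgenic animals came from a line of female embryonic stem cells. The methods derive this line from C57BL/6J blastocysts, while their general statement on animals names C57BL/6J or a hybrid of it with 129. The mutant column names hold MutSall1N2. The strain of the controls is unclear, since their column names hold B6, the methods name CD1 and the results speak of littermates, so a difference of strain between the groups cannot be told apart from the transgene. No other allele or agent is named for either group, and how many embryos stand behind a library is not given in the sources used here. P-values therefore measure the spread between these libraries, which may in part be technical.

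Retinoic acid is made from vitamin A (retinol) in successive oxidations. RDH10 turns retinol into retinaldehyde, and the retinaldehyde dehydrogenases ALDH1A1, ALDH1A2 and ALDH1A3 turn retinaldehyde into retinoic acid. CRABP1 and CRABP2 carry retinoic acid inside the cell, CYP26 enzymes oxidize it for removal, and the nuclear receptors RARA, RARB and RARG, paired with RXR, switch on genes next to their binding elements. In the fetal gonad retinoic acid is best known for its link to Stra8 and the entry of germ cells into meiosis, and CYP26B1 for clearing it from the fetal testis.

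The libraries held between 11036313 and 17869840 counts, and both mutant libraries were shallower than both wild-type libraries. Counts of Sall1 were 1243 and 1445 in mutants and 279 and 223 in controls, so its level went with the label in every library. On the log2 scale it rose by 2.85 (standard error 0.16). The adjusted p was 0.00823 (edgeR, quasi-likelihood F-test, Benjamini-Hochberg). Wt1 showed 317 ± 34.3 CPM (SD, n = 2) in mutants and 309 ± 0.0341 (SD, n = 2) in controls, where CPM are counts scaled to a common library size with TMM factors. The pre-granulosa marker Foxl2 (481 to 664 counts) and the germ cell marker Ddx4 (3981 to 6182 counts) were present in every library. Foxl2 had 46.3 and 44.1 CPM in mutants against 28.0 and 32.0 CPM in controls (log2 fold change 0.59, adjusted p = 0.301, edgeR). Amh, a Sertoli cell hormone, had 3 counts in each library.

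The 3 retinaldehyde dehydrogenase genes differed between mutant and wild-type ovaries in opposite directions, with calls that depended on the test. Aldh1a2 was at about 0.49 of its wild-type level, Aldh1a3 at 2.24 times and Aldh1a1 at 1.37 times, and in each case the mutant libraries did not overlap with the controls. Neither the binding proteins Crabp1 and Crabp2, nor Cyp26b1, nor the receptor and target gene Rarb showed such a separation. In edgeR, with p adjusted over all 15442 genes tested, 0 of the 8 members passed at 0.05. Of all genes 0.0583% passed, 0.0453% lower and 0.013% higher in mutants. At an unadjusted p under 0.05 there were 3 of 8, against 5.69% of all genes. DESeq2, the tool of the study, called 2 of 8, Aldh1a2 lower and Aldh1a3 higher, against 0.714% of all genes to which it gave an adjusted p. Groups that did not overlap were seen in 4 of the 8 members, against 30.9% of all genes tested. The median log2 fold change of the 8 genes was 0.060, beside -0.00088 for all genes tested.

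**Figure D1:**
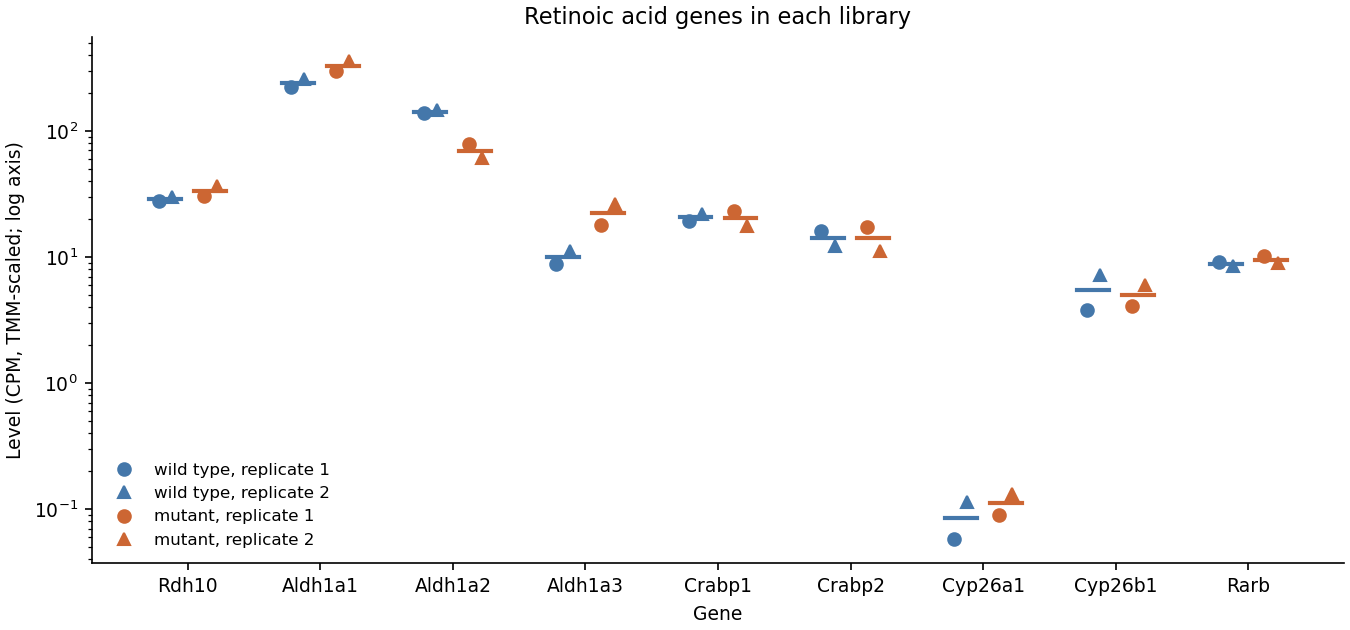
Level of each of the 9 genes in the 4 libraries, in CPM on a log axis, with wild-type libraries in blue and mutant libraries in orange. Circles stand for replicate 1, triangles for replicate 2 and bars for the mean of the group. The orange points lie below the blue ones for Aldh1a2 and above them for Aldh1a1, Aldh1a3 and Rdh10, and they mix for the other genes.

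Aldh1a2 lies on the plus strand of chromosome 9, between 71063596 and 71144050 on NCBIM37 (mm9; positions from GENCODE M1), and has 14 exons. Its counts were 869 and 912 in mutants and 2362 and 2575 in controls, or 78.8 and 60.6 CPM against 137 and 146 CPM. Both mutant libraries were thus well below both wild-type libraries, and the 2 mutant libraries differed from each other by 1.30-fold, more than the 1.06-fold between the wild-type libraries. The mean was 69.7 ± 12.9 CPM (SD, n = 2) in mutants and 142 ± 6.10 (SD, n = 2) in controls. The log2 fold change was -1.03 (standard error 0.14, 95% interval -1.35 to -0.70), and edgeR gave an adjusted p of 0.106 (0.00015 before adjustment). Aldh1a2 ranked 22 of 15442 genes by this p. DESeq2 gave the same size of change, -1.03 (standard error 0.16), and an adjusted p of 3.06e-08. The edgeR call turned on the libraries used. It passed without mutant replicate 1 (-1.23, adjusted p = 0.00129, edgeR) and without mutant replicate 2 (-0.85, adjusted p = 0.0266, edgeR), and it did not pass without either wild-type library, where the adjusted p reached at most 0.166. In these fits a group of 1 library is assumed to vary like the other group.

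Aldh1a3 sits on chromosome 7, minus strand, between 73535778 and 73572403 (NCBIM37). Its counts were 196 and 399 in mutant against 152 and 195 in wild-type libraries, which corresponded to 17.8 and 26.5 CPM against 8.83 and 11.05 CPM. Before scaling, the lower mutant count was only 1 above the higher wild-type count, and the groups stood further apart in CPM. With 22.2 ± 6.18 CPM (SD, n = 2) against 9.94 ± 1.57 CPM (SD, n = 2), the estimate was 1.16 on the log2 scale (standard error 0.23, 95% interval 0.61 to 1.71), and edgeR gave an adjusted p of 0.266. DESeq2 gave 1.16 with an adjusted p of 0.0117. The spread between the mutant libraries was 1.49-fold, and mutant replicate 2 was the higher. Without mutant replicate 1 the log2 fold change was 1.41 and passed in edgeR (adjusted p = 0.00704), whereas over the other 3 omissions the lowest value was 0.84 and the highest adjusted p was 0.812.

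Aldh1a1 was the most abundant of the 9 genes. It lies on the plus strand of chromosome 19, from 20676451 to 20717952 (NCBIM37), close to Aldh1a7 on the opposite strand, from 20767443 to 20802052, a near copy of it. The libraries showed 298 and 360 CPM in mutant and 223 and 256 CPM in wild-type ovaries, without overlap. The log2 fold change was 0.46 (standard error 0.12, 95% interval 0.16 to 0.75), with an adjusted p of 0.50 in edgeR and 0.106 in DESeq2. The call of Aldh1a1 changed with the replicate number in the model, as given in the closing section. It passed in edgeR without mutant replicate 1 (0.59, adjusted p = 0.0476). Of all stretches of 50 bases in the Aldh1a1 transcript, 7.53% also occur in Aldh1a7, so the split of reads between these genes is less certain than for the other members, whose transcripts share 0 such stretches with coding transcripts of other genes. Aldh1a7 itself had 39.6 and 49.9 CPM in mutant against 48.1 and 58.2 CPM in wild-type libraries, with overlapping groups and a log2 fold change of -0.24 (95% interval -0.61 to 0.13, adjusted p = 1.00, edgeR).

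To compare levels between genes, CPM were divided by the summed length of all annotated exons of a gene in kilobases. On this scale Aldh1a1 had 117 ± 11.5 CPM per kb (SD, n = 2), Aldh1a2 62.5 ± 2.70 and Aldh1a3 2.15 ± 0.339 in wild-type ovaries, and 160 ± 21.5, 30.8 ± 5.69 and 4.80 ± 1.34 in mutant ovaries. The sum of the 3 genes was 171 and 192 CPM per kb in the wild-type libraries and 184 and 208 in the mutant libraries, so the groups overlapped in the total. The make-up of that total differed. Aldh1a2 took 35.4% and 33.6% of it in the wild-type libraries and 19.0% and 12.9% in the mutant libraries. Aldh1a1 took 63.5% and 65.1% in wild-type against 78.9% and 84.4% in mutant libraries. Aldh1a3 remained a minor part, with 1.12% and 1.25% against 2.10% and 2.76%. These shares are of RNA and do not weigh the activity of the enzymes. Nor do they need a scaling between libraries, and the groups were apart for each of the 3 genes. The shares of a library add up to its whole, so a lower share of Aldh1a2 raises the other shares. They are therefore not 3 separate results.

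**Figure D2:**
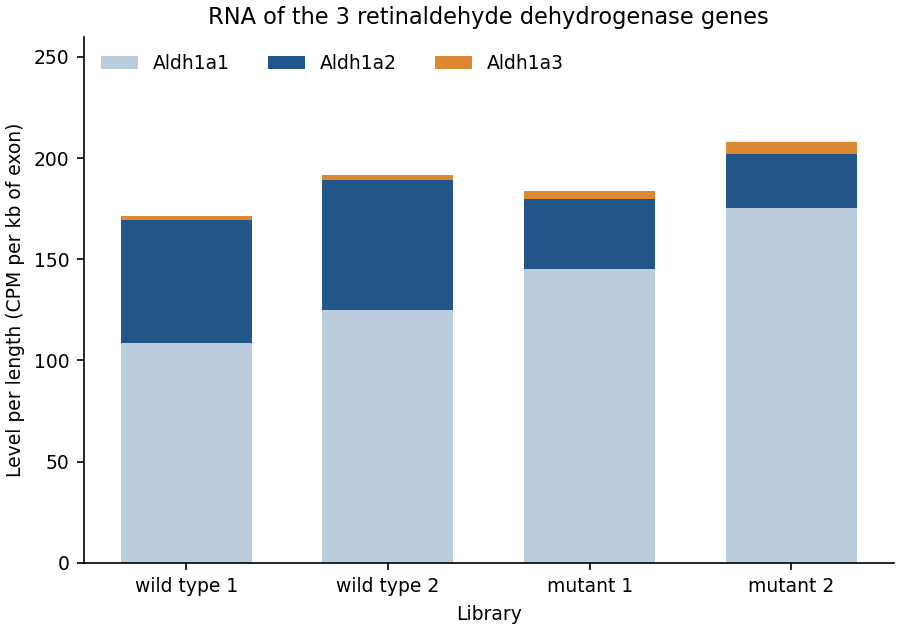
Stacked bars give the level per length (CPM per kb of exon) of Aldh1a1, Aldh1a2 and Aldh1a3 in each of the 4 libraries, from 0. The total height is 171 to 208 in all libraries, while the dark Aldh1a2 part is 60.6 and 64.4 in the wild-type and 34.8 and 26.8 in the mutant libraries.

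Rdh10, the retinol dehydrogenase upstream of these enzymes, lies on the plus strand of chromosome 1, from 16095855 to 16123815 (NCBIM37). It had 30.2 and 36.2 CPM in mutant against 27.5 and 29.7 CPM in wild-type libraries. The groups did not overlap, but the nearest libraries were close to each other, and the log2 fold change of 0.22 (standard error 0.14, 95% interval -0.11 to 0.54) had an adjusted p of 1.00 in edgeR and in DESeq2. Rdh10 was lower per length than Aldh1a1 and Aldh1a2, at 6.89 ± 0.374 CPM per kb (SD, n = 2) in wild-type and 7.99 ± 1.02 in mutant ovaries.

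The binding proteins showed no separation of the groups. Crabp1, on the plus strand of chromosome 9 from 54612555 to 54620917, had 23.3 and 17.7 CPM in mutant and 19.4 and 21.9 CPM in wild-type libraries. The mutant libraries lay on either side of the wild-type ones, and the log2 fold change was -0.013 (95% interval -0.43 to 0.40). Crabp2, on the plus strand of chromosome 3 from 87752588 to 87757298, had 17.2 and 11.2 CPM in mutant and 15.9 and 12.2 CPM in wild-type libraries. Here too the mutant libraries enclosed the wild-type ones, and the log2 fold change was 0.0045 (95% interval -0.59 to 0.59), with a sign that depended on the setting. For both genes the adjusted p was 1.00 in edgeR, and changes as large as the ends of the intervals cannot be told from none.

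The degrading enzymes were scarce. Cyp26b1, on chromosome 6, minus strand, between 84521938 and 84543740, had 45 and 90 counts in mutant and 65 and 126 counts in wild-type libraries. This gave 4.08 and 5.98 CPM against 3.78 and 7.14 CPM. The difference within a group, 1.47-fold in mutant and 1.89-fold in wild-type ovaries, was larger than that between the means of the groups, 1.08-fold. The log2 fold change was -0.11 with a 95% interval from -0.999 to 0.78, an interval that ends just short of the estimate for Aldh1a2. Cyp26a1, on the plus strand of chromosome 19 from 37772298 to 37776018, had 1 count in replicate 1 and 2 counts in replicate 2 of either group. All are under a floor of 3 counts, which corresponds to between 0.17 and 0.272 CPM, and Cyp26a1 was not tested. The third enzyme of the family, Cyp26c1, had 2 counts in wild-type replicate 2 and 0 in the other libraries. The floor covers counting error only, whereas the edgeR intervals also take in the spread between libraries.

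Rarb, on chromosome 14, minus strand, between 17263356 and 17651381 (NCBIM37), encodes a retinoic acid receptor and is itself a classical target of the pathway. It had 112 and 134 counts in mutant against 157 and 149 in wild-type libraries, or 10.2 and 8.91 CPM against 9.12 and 8.44 CPM. The groups overlapped, and their means of 9.53 ± 0.888 and 8.78 ± 0.482 CPM (SD, n = 2 each) differed by less than the mutant SD. The log2 fold change was 0.12 (standard error 0.20, 95% interval -0.35 to 0.58, adjusted p = 1.00, edgeR), an interval that does not reach the estimate for Aldh1a2.

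Rarb and Cyp26a1 are known to answer to retinoic acid through a direct repeat close to their start sites, and both promoters are shown for that reason, beside that of Aldh1a2, the gene with the smallest p among the 8. The windows run from 250 bases before to 50 bases after the start of transcription in RefSeq on GRCm38.p6, written along the gene's own strand. They were searched on both strands for 2 hexamers in the same orientation, parted by 5 bases, each of them AGGTCA or AGTTCA or GGGTCA or GGTTCA. Capitals mark the match, which lies 53 to 37 bases before the start of Rarb (chr14:16575513-16575529), and 32 to 16 bases before that of Cyp26a1 on the opposite strand (chr19:37697776-37697792).
Rarb, chr14:16575427-16575726, minus strand: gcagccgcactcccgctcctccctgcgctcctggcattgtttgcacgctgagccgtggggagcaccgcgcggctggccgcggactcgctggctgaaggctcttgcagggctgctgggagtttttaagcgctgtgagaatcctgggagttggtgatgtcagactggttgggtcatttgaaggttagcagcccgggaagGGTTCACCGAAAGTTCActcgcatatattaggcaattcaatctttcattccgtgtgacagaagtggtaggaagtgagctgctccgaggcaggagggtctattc
Cyp26a1, chr19:37697558-37697857, plus strand: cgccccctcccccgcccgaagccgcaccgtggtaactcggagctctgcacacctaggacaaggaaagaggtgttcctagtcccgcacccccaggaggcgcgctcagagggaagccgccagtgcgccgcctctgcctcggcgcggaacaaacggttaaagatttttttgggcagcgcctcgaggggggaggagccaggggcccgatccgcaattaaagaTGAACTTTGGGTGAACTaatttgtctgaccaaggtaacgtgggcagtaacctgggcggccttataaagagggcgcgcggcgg
Aldh1a2, chr9:71215539-71215838, plus strand: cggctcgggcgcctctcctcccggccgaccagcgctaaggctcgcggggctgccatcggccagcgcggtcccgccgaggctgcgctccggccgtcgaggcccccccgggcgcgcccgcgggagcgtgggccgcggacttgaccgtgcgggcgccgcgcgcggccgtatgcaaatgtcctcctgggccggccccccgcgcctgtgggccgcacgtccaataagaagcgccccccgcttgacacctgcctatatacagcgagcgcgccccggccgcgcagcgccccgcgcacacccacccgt
Of the 9 members, 6 had a window in the promoter table, and 2 of these 6, or 2 of their 7 windows, held the repeat. Among all genes it was in 32 of 32851 windows (0.0974%). Rarb and Cyp26a1 were known to hold such a repeat before the search, so these shares do not measure enrichment among the members. The windows of Aldh1a1, Aldh1a2, Crabp1 and Cyp26b1 did not hold these letters. The 2 genes with the repeat were the overlapping Rarb and the hardly detected Cyp26a1, and neither was separated between the groups.

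In wild-type ovaries the order of levels per length was Aldh1a1, Aldh1a2, Crabp1, Crabp2, Rdh10, Rarb, Aldh1a3, Cyp26b1 and Cyp26a1, and no neighbours in this order overlapped between their 2 libraries. In mutant ovaries Aldh1a3 stood ahead of Rarb, with 3.85 and 5.75 against 3.09 and 2.70 CPM per kb. Aldh1a2 (34.8 and 26.8 CPM per kb) overlapped there with Crabp1 (29.1 and 22.0), as did Crabp2 (13.0 and 8.45) with Rdh10 (7.26 and 8.71). All lengths come from GENCODE M1, which may differ from the annotation behind the counts.

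Aldh1a2 was then set against each other member within the same library, which needs neither gene length nor scaling between libraries. The log2 ratio of Aldh1a2 to Aldh1a3 was 3.96 and 3.72 in the wild-type libraries and 2.15 and 1.19 in the mutant libraries, a ratio 4.50-fold lower. The ratio to Aldh1a1 went from -0.70 and -0.81 to -1.92 and -2.57, and that to Rdh10 from 2.32 and 2.29 to 1.38 and 0.74. Against the genes whose groups overlapped, the ratio was lower by about as much as Aldh1a2 itself, 2.02-fold for Crabp1, 2.03-fold for Crabp2, 2.22-fold for Rarb and 1.95-fold for Cyp26b1. For all 7 ratios the groups did not overlap. All 7 share the Aldh1a2 values, which were themselves apart between the groups, and Aldh1a2 was picked as the changed gene. They are therefore not 7 separate results. With 2 libraries against 2, an exact permutation test (two-sided) cannot go below 0.333, which each ratio reached, also after adjustment over the 7 ratios.

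**Figure D3:**
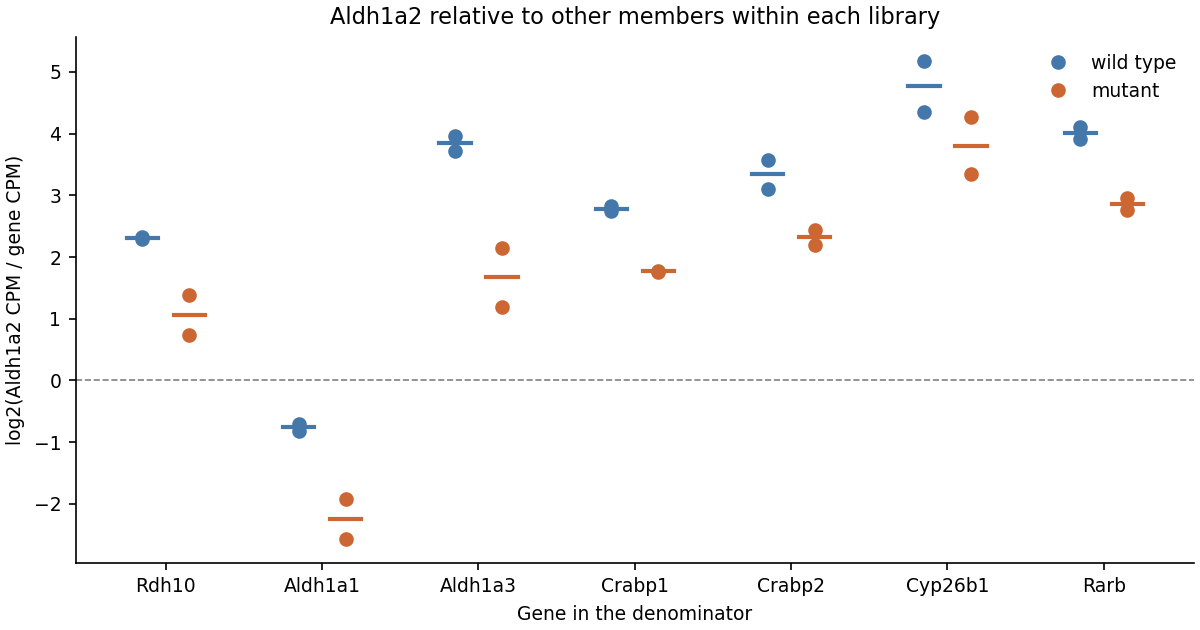
Log2 ratio of Aldh1a2 CPM to the CPM of each other member with at least 10 counts in every library, by library, with bars at the group means. In every pair of columns both mutant libraries (orange) lie under both wild-type libraries (blue), and the gap is widest for Aldh1a3. All columns share the same Aldh1a2 values and are not independent.

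Beyond the members, a list of 63 retinoid genes was examined, of which 62 were in the table and 47 were tested. Of these, 0 passed in edgeR in either direction and 0 in DESeq2, and 2 of 47 had an unadjusted p under 0.05 in edgeR, no larger a share than the 5.69% of all genes. The median log2 fold change of the 47 was -0.012, with 22 values above and 25 below 0. The 2 genes were Fabp5, a fatty acid binding protein that can also carry retinoic acid, and Lpl, a lipoprotein lipase. Fabp5 had 26.2 and 18.1 CPM in mutant against 34.6 and 31.2 CPM in wild-type libraries, a log2 fold change of -0.58 (95% interval -1.02 to -0.13, adjusted p = 0.694, edgeR). Lpl, chosen for naming after its values were seen, had 48.2 and 41.3 against 63.0 and 57.1 CPM, a log2 fold change of -0.43 (adjusted p = 0.575, edgeR). Neither passed in DESeq2.

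Among the genes of uptake, the retinol receptor gene Stra6 had 26.9 and 22.4 CPM in mutant and 27.3 and 18.5 CPM in wild-type libraries. The groups overlapped. Rbp4 and Ttr, the carriers of retinol in the blood, were high in wild-type replicate 1, with 289 and 217 counts. Rbp4 had 37 to 64 counts and Ttr 1 to 38 counts in the other libraries, and both names were added after their values were seen. Dhrs3, which reduces retinaldehyde back to retinol, had 43.3 and 36.7 CPM in mutant against 36.6 and 32.9 CPM in wild-type libraries. Its log2 fold change was 0.20 (95% interval -0.12 to 0.52). Adh1, an alcohol dehydrogenase that can oxidize retinol, also singled out after its values were seen, had 30.4 and 4.79 CPM in mutant against 6.80 and 1.93 CPM in wild-type libraries. Its groups overlapped, and the 2 libraries of each group differed severalfold (log2 fold change 1.99, 95% interval -0.057 to 4.04, adjusted p = 0.891, edgeR). Between same-numbered libraries Adh1 was higher in the mutant both times. Its call changed with the replicate number in the model, as given in the closing section. Without mutant replicate 2 it passed in edgeR (2.80, adjusted p = 0.0368), as did Fabp5 without mutant replicate 1 (-0.87, adjusted p = 0.0435).

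No receptor gene passed a test. Rara had 51.4 and 42.1 CPM in mutant against 51.1 and 43.3 CPM in wild-type libraries, and its log2 fold change was -0.016 (95% interval -0.36 to 0.33). Rxra, the partner receptor, had 89.6 and 95.2 against 99.7 and 101 CPM, a log2 fold change of -0.12 (95% interval -0.34 to 0.098). Rarg had 20.0 and 13.7 against 23.1 and 19.3 CPM (log2 fold change -0.34, 95% interval -0.84 to 0.15). Of the 5 receptor genes and 9 cofactor genes tested, 0 had an unadjusted p under 0.05 in edgeR, and 0 passed in DESeq2.

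Among the target genes, Stra8, the gene most closely tied to retinoic acid and meiotic entry, had 112 and 191 CPM in mutant against 167 and 190 CPM in wild-type libraries. Mutant replicate 1 was the lowest of the 4 libraries and mutant replicate 2 the highest, so the log2 fold change of -0.23 (95% interval -0.77 to 0.31, adjusted p = 1.00, edgeR) lay within the spread of the mutant group. Rec8, a meiotic cohesin subunit, had 176 and 186 CPM in mutant against 195 and 165 CPM in wild-type libraries, with a log2 fold change of 0.0075 (95% interval -0.25 to 0.27). Of 9 target genes tested, 0 had an unadjusted p under 0.05 in edgeR and 0 passed in DESeq2.

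**Figure D4:**
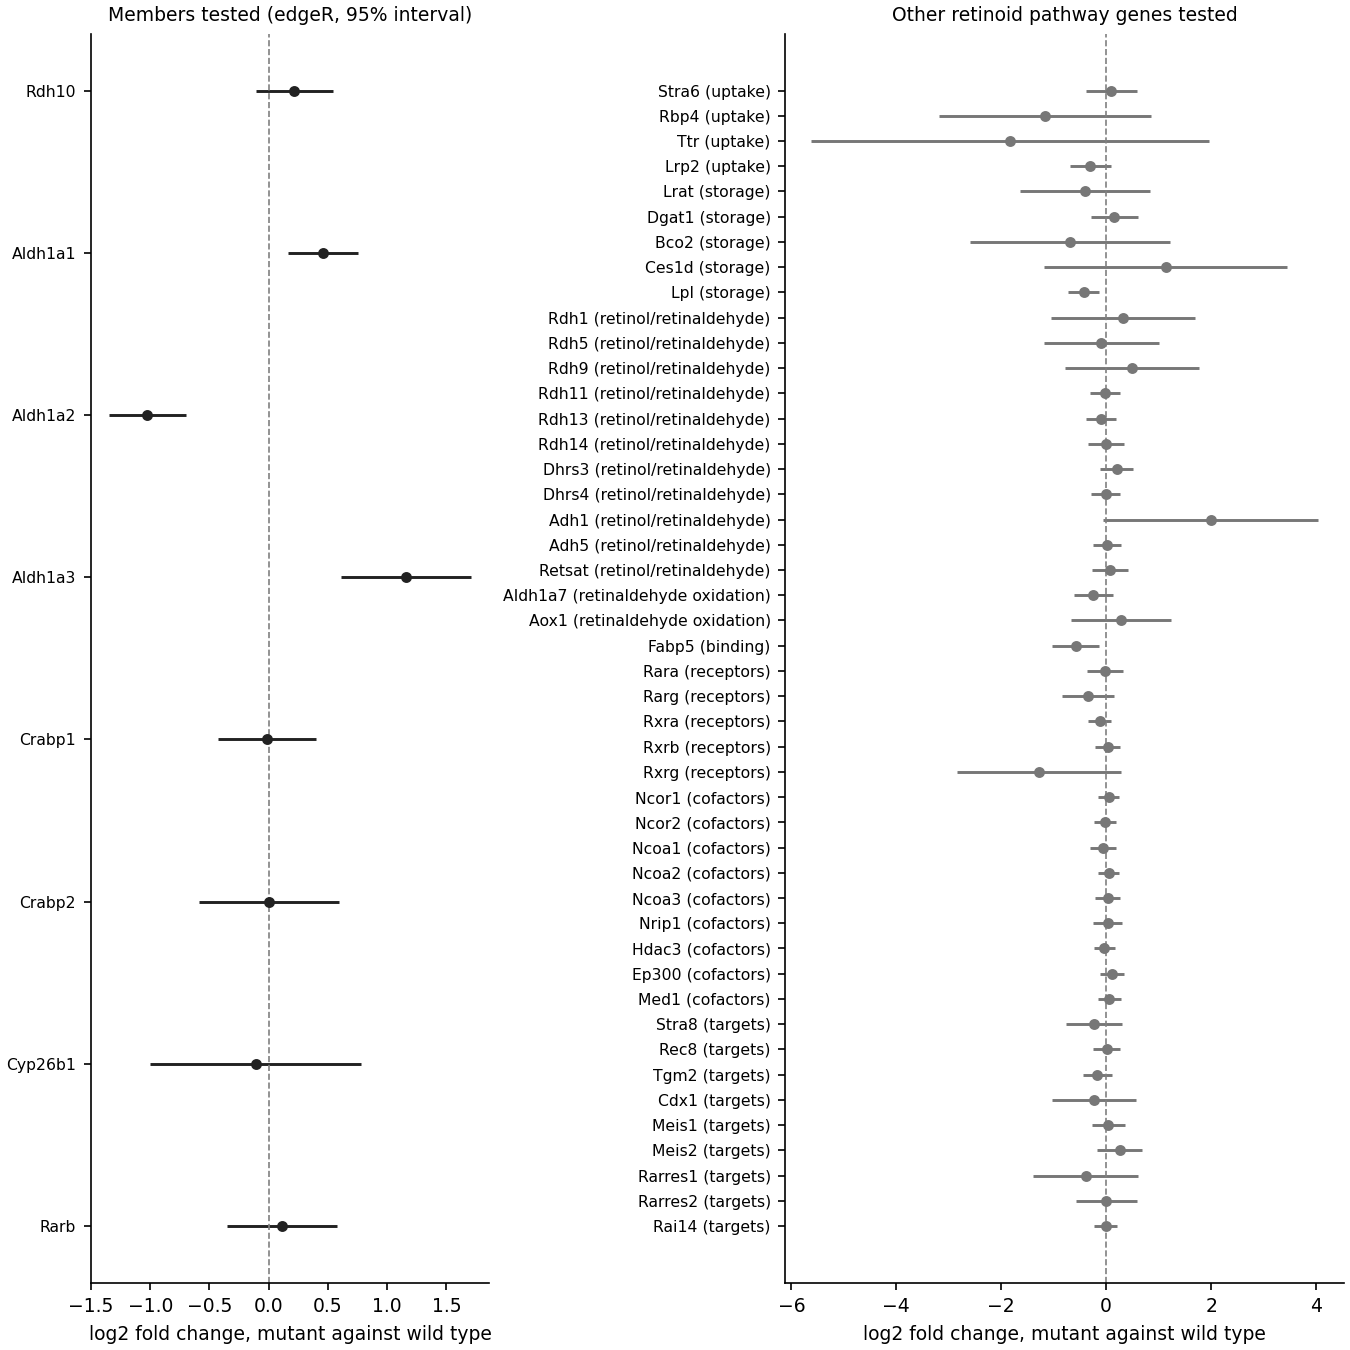
Log2 fold changes of mutant against wild type with 95% intervals from edgeR, for the 8 members tested (left) and, ordered by role, the other retinoid pathway genes tested, all but 1 of them shown (right). The 2 axes have different ranges. On the left the intervals of Aldh1a2, Aldh1a1 and Aldh1a3 leave out 0, and on the right only those of Fabp5 and Lpl do.

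The 5 genes whose pattern over the 4 libraries was nearest to that of Aldh1a2, out of 10123 genes with a mean of at least 10 CPM, were Mst1r, Gucy1a3, Calcrl, Tcf21 and Cntnap2. Likeness was the root mean square difference of log2(CPM + 1) after centring each gene, and it was 0.042 for Mst1r and 0.12 for Cntnap2. Mst1r, a receptor tyrosine kinase, had 12.2 and 9.84 CPM in mutant against 21.6 and 23.2 CPM in wild-type libraries. Tcf21, a transcription factor of urogenital mesenchyme, had 28.0 and 23.3 against 57.7 and 51.7 CPM, and stood at -1.10 on the log2 scale (edgeR, adjusted p = 0.0811). Of the 5 genes, Gucy1a3, a subunit of soluble guanylate cyclase, passed in edgeR, at -1.13 (adjusted p = 0.0416). With 4 libraries such likeness is a description of these libraries.

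Tcf21 also belongs to a list of interstitial and stromal markers with a median under 0. Of its 15 genes, all of them tested, 13 had a log2 fold change under 0 and the median was -0.41. DESeq2 called 3 of them lower (Tcf21, Pdgfra and Lum), against 0.428% of all genes, and edgeR 0. Of the 15 genes, 7 had an unadjusted p under 0.05 in edgeR (Ptch1 higher, the rest lower), against 5.69% of all genes. The summed level of this list was 2992 and 1985 CPM in the mutant and 2800 and 2851 CPM in the wild-type libraries, so the sum, which the collagen genes dominate, overlapped between the groups. Without Col1a1, Col1a2 and Col3a1, left out after their values were seen, the other 12 genes summed to 669 and 522 CPM in mutants against 799.6 and 767 CPM in controls, without overlap. Taken singly, 15.1% of all genes tested were lower in mutants without overlap. None of the markers of this list was at 0, and Nr2f2, a defining factor of interstitial cells, had 674 to 1478 counts.

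Of 9 surface epithelium markers tested, DESeq2 called 2 lower (Upk3b and Lhx9), against 0.428% of all genes, and edgeR called 0. At an unadjusted p under 0.05 in edgeR there were 4 (Upk3b, Lhx9 and Gpm6a lower, Aldh1a1 higher), against 5.69% of all genes. The median of the 9 markers was -0.34, and 4 of the 9 were lower without overlap, against 15.1% of all genes. The whole list summed to 1424 and 1281 CPM in mutant against 1302 and 1306 CPM in wild-type libraries, most of it from Podxl and from Aldh1a1, which is itself on this list and was not lower. Podxl (log2 fold change 0.14) and Aldh1a1 (0.46) were also the 2 tested genes of this list above 0. Both were left out, again after their values were seen, which moves the sum toward a lower mutant level. The other 8 then summed to 307 and 226 CPM in mutants against 376 and 379 CPM in controls, without overlap. In bulk tissue, fewer cells of a type and less RNA per cell cannot be told apart, and what part these markers have in the lower Aldh1a2 level was not tested.

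The other lists had medians nearer to 0, except for the erythroid one. The median was 0.087 for 10 pre-granulosa genes, of which DESeq2 called Lgr5 higher and Bmp2 lower. In edgeR 4 of the 10 had an unadjusted p under 0.05 (Foxl2, Irx3 and Lgr5 higher, Bmp2 lower), against 5.69% of all genes. This list summed to 923 and 894 CPM in mutants against 830 and 827 CPM in controls, without overlap. Taken singly, 15.8% of all genes tested were higher in mutants without overlap. The median was -0.023 for 10 germ cell, 0.042 for 8 mesonephric, 0.040 for 9 Sertoli and -0.065 for 4 steroidogenic genes. It was -0.11 for 10 endothelial and 0.12 for 8 macrophage genes. An unadjusted p under 0.05 in edgeR was seen in 1 mesonephric, 2 Sertoli (Ptgds and Aard, higher) and 0 germ cell or macrophage genes. Steroidogenic genes had 2 (Cyp11a1 higher, Hsd3b1 lower) and endothelial genes 1 (Kdr, lower). The mesonephric duct and tubule genes summed to 178 and 195 CPM in mutant and 168 and 195 CPM in wild-type libraries, most of it from Emx2, and without Emx2 to 39.4 and 53.7 against 39.2 and 43.3 CPM, with overlap both times. Their defining gene Pax2 had 10 to 22 counts. Pax8 of the same list had 13.9 and 17.7 CPM in mutants against 9.07 CPM in both controls, a log2 fold change of 0.80 that did not pass (adjusted p = 0.367, DESeq2). Red blood cell genes varied most between libraries of one group. They summed to 3183 and 871 CPM in mutant against 3502 and 1687 CPM in wild-type libraries, with a median of -0.43 over 7 genes tested.

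**Figure D5:**
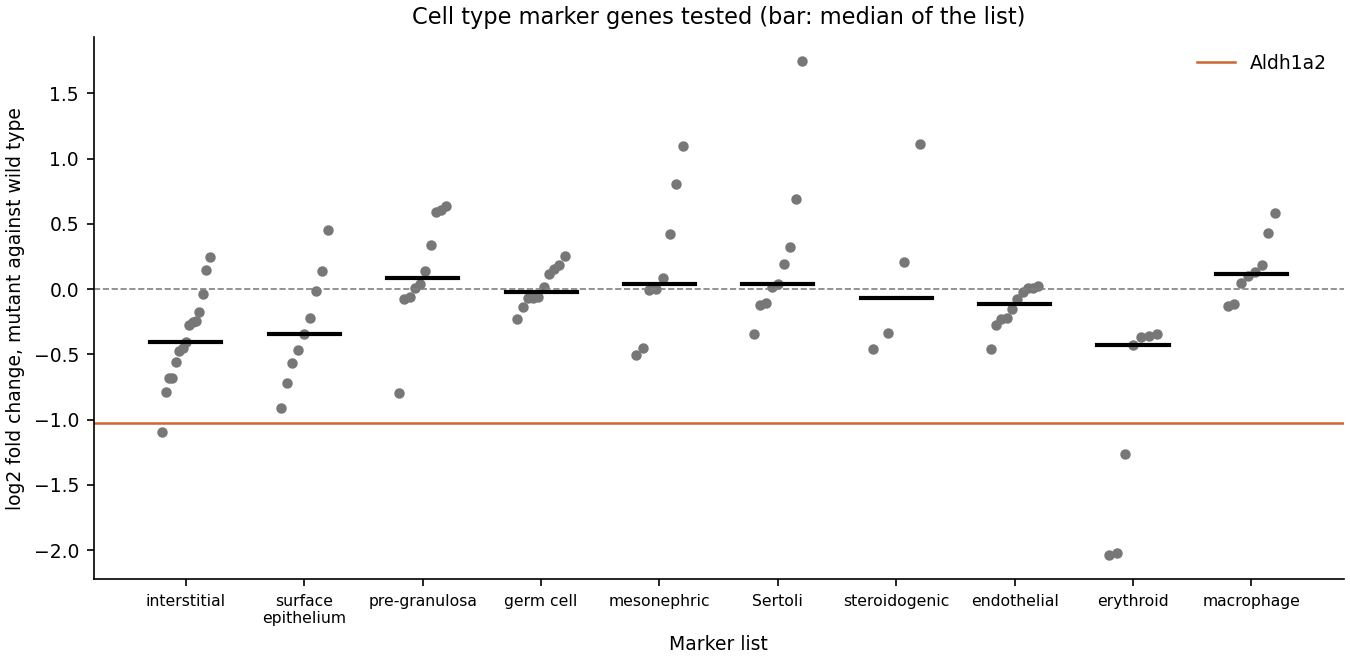
Log2 fold changes of mutant against wild type for the tested genes of 10 marker lists, as points, with a bar at the median of each list. The orange line marks Aldh1a2 at -1.03. The medians of the interstitial, surface epithelium and erythroid lists lie at -0.41, -0.34 and -0.43.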

How the data were processed

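Gene counts of 4 mouse ovary libraries were used. Per the labels and the study's methods, the authors aligned reads with STAR 2.6.1d (mm9 is the build named) and counted them per gene with summarizeOverlaps. The deposited counts are neither normalized nor pooled, and annotation and strand setting are not given in the sources used here. No annotated exon of a member overlaps an exon of another gene. All count columns were matched to libraries by genotype and replicate number.

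Counts were tested in R 4.3.3 with edgeR 4.0.16 (TMM, filterByExpr, quasi-likelihood F-test, genotype as the only factor, Benjamini-Hochberg adjustment over 15442 genes). Standard errors were derived from fold change and F statistic. DESeq2 1.42.0, run with default settings, is the study's tool and an alternative here. Libraries of a group differed by more than sampling noise (chi-square per degree of freedom 12.3 and 14.2). The other alternatives were RLE and upper-quartile normalization, no filter, at least 10 counts in every library, the likelihood ratio test, an adjusted p under 0.1, the replicate number as a block, and leaving out each library. DESeq2 with the block was added after seeing the data. Fits were tested on simulated data.

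Members and gene lists were chosen with earlier results of these data known. Named were all members, Sall1, Wt1, pathway genes that passed, a few genes per role, and the 5 genes nearest to Aldh1a2. Further names are marked as chosen later. Some single-gene values are not reported here. Promoters are RefSeq windows on GRCm38.p6, matched by symbol, and coordinates of genes are GENCODE M1 on NCBIM37.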

Additional observations from a re-analysis of the deposited data

How the results depend on the processing

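The number of calls depended on the model. All genes called, 9 with edgeR, were 105 with DESeq2, 134 with the likelihood ratio test, 28 with no filter, 19 with at least 10 counts in every library and 20 at an adjusted p under 0.1, and ranged from 4 to 130 with each library left out. Members called, 0 with edgeR, were 2 with DESeq2 and with the likelihood ratio test (Aldh1a2 and Aldh1a3), 1 with no filter (Aldh1a2), and 0 to 3 with each library left out. Other retinoid pathway genes called, 0, ranged from 0 to 1 there. Aldh1a2, at -1.03, passed at -1.03 with DESeq2 and with no filter and at -1.02 with the likelihood ratio test, and ranged from -1.23 to -0.85 with each library left out. Sall1 passed in every setting, from 2.70 to 3.04 with each library left out.

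The replicate numbers are shared between the groups, and column names give same-numbered libraries neighbouring library numbers, but no label says that they mark a litter or day. Same-numbered libraries deviated together (correlation across genes 0.466). With the replicate block 385 genes were called, 3 of them members (Aldh1a1 with an adjusted p of 0.00393, Aldh1a2 at -1.03, and Aldh1a3) and 3 other pathway genes (Adh1 with an adjusted p of 0.000277, Fabp5 and Lpl). DESeq2 with the replicate block called 118 genes, the same 3 members (Aldh1a2 at -1.04) and 1 pathway gene (Adh1). The cause of these differences was not tested.

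The sign of genes near 0 was not stable. Crabp2, at 0.0045, was at -0.0076 with upper-quartile normalization, -0.0037 with no filter, -0.0057 with the replicate block and -0.012 with DESeq2 and the replicate block, and from -0.34 to 0.29 with each library left out. With each library left out, Crabp1 ranged from -0.22 to 0.18 and Cyp26b1 from -0.49 to 0.43. The 7 ratios of Aldh1a2 to other members stayed under 0 there, between -2.65 and -0.497. Depth limits Cyp26a1 and Cyp26c1, which could not be tested.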
